A study of Mus musculus with 9 samples.

Results

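Transcripts of 85 of 6462 listed genes fell within 1 h when BV2 cells, a mouse microglial line, met bacterial lipopolysaccharide (LPS). They were selected on the measured difference between the LPS 1 h and untreated libraries. BV2 cells were untreated (0 h) or received 200 ng/ml LPS for 1 h or for 12 h, with 3 libraries in each group and 9 in all, and the labels give no other allele or agent in any group. Whether the 3 libraries were separate cultures is not given in the labels, and p-values then cover the spread between libraries, which may be technical. No untreated cells at 1 h or 12 h were analysed here, so the effect of LPS and that of time since 0 h cannot be told apart. Levels are FPKM, a share of the library's fragments scaled by transcript length. Averaged over all 9 libraries, 5643 of the listed genes reached 1 FPKM. In 97 of these the mean of log2(FPKM + 1) at 1 h lay at least 0.7 below that at 0 h. Left out by name were 2 genes with symbols beginning Slc, 3 beginning Zfp, and 7 others (Arg1, Osgin1, Gpr183, Ier5l, Bnip3, Ndrg1 and Egln3), leaving the 85. A further 2 genes below the level filter fell past the threshold and are not described. Just inside the threshold were Rgs11 at -0.71, Mettl21a at -0.71 and Abhd15 at -0.70, and just outside it Stat2 at -0.70, Tmem206 at -0.70 and Ephx1 at -0.69.

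LPS binds Toll-like receptor 4 on microglia and macrophages and within minutes switches on NF-kappa B and MAP kinase signaling, which induces cytokine and immediate-early genes. The level of an mRNA falls when fewer copies are made or copies are degraded faster, and a short-lived mRNA follows such a change soonest. Ddit4 and Txnip are known for short-lived mRNAs.

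Because the 1 h and untreated libraries chose the genes, their difference is a description and carries no test. All 85 genes were called lower at 1 h, against 34.9% of all tested genes. In each of the 85 the 3 LPS 1 h libraries lay below the 3 untreated libraries. A fall of this size nearly fixes both, and the share of all tested genes with such separation was not counted. The median difference was -0.89 on the log2(FPKM + 1) scale, beside -0.03 over all tested genes, and 28 genes fell by 1 or more. The genes were of low to moderate abundance. Their median level was 7.07 FPKM in untreated cells, 3.32 at 1 h and 3.93 at 12 h, while the median of all tested genes was 12.8, 12.7 and 12.6 FPKM in the same order. The highest mean levels over the 9 libraries belonged to Txnip, Gsn and Dusp7 and the lowest to Ccdc142, Rab3a and 9930012K11Rik. In bulk RNA, a lower level in every cell and a loss from some of the cells cannot be told apart. As arithmetic on the mean FPKM, an even exponential decline over the hour would halve the level every 24.2 min for Thbd, every 27.0 min for Ddit4 and every 79.6 min for Fzd7. Thbd was the fastest and Fzd7 the slowest by this measure.

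**Figure D1:**
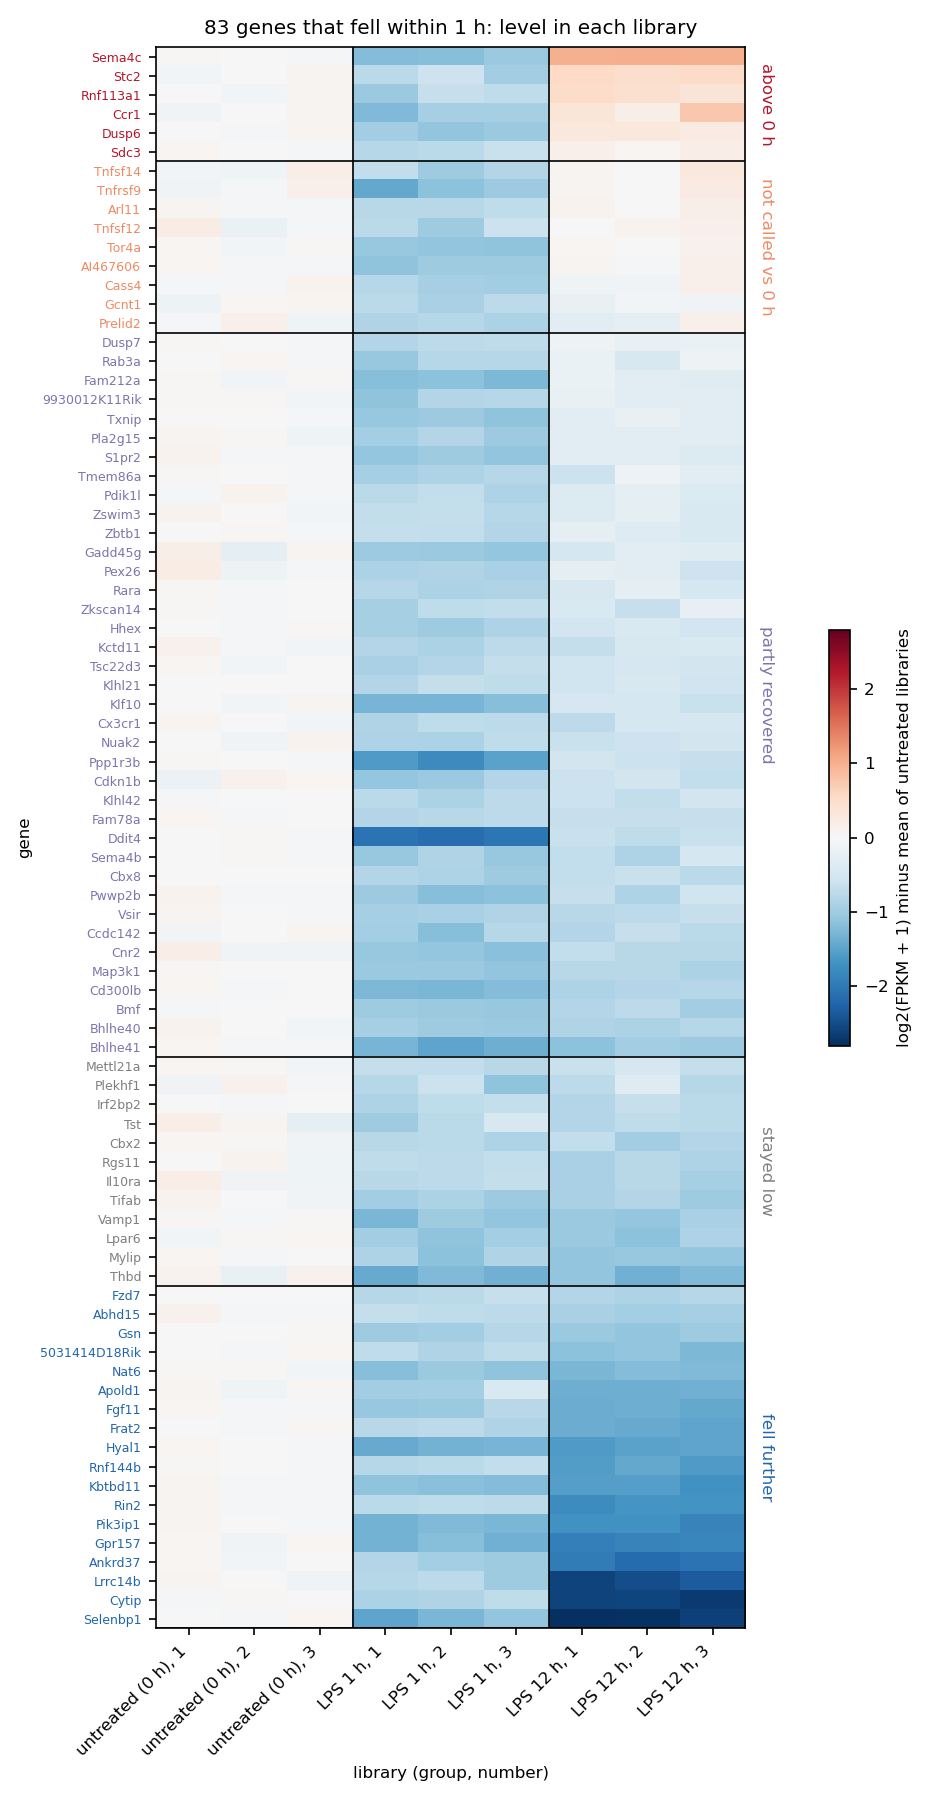
Log2(FPKM + 1) of 83 of the 85 genes (rows) in the 9 libraries (columns), each minus the mean of the 3 untreated libraries, with blue below and red above it. Every gene shown is blue in the 3 LPS 1 h libraries, as the choice of genes requires, while the 12 h libraries run from red for Sema4c at the top to the deepest blue for Selenbp1 at the bottom.

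At 12 h 39 of the 85 genes (45.9%) were both above their 1 h level and still below their untreated level. The share of all tested genes with both calls is not given here. Differences are given on the log2(FPKM + 1) scale with their SE, from 3 libraries against 3 in a limma fit over all 5643 tested genes. The 12 h libraries took no part in the choice, but each comparison below shares its other group with the one that chose the genes. That choice favors high untreated and low 1 h values, by an amount that was not measured. Beside a median SE of 0.0641, it could matter for small differences. Among these are the 12 h minus 1 h differences of 0.15 for Bhlhe40 and 0.19 for Bmf. Between 12 h and 1 h, 54 genes (63.5%) were called higher and 19 (22.4%) lower, against 41.9% and 43.6% of all tested genes, and 12 were not called. Between 12 h and untreated cells, 70 (82.4%) were called lower and 6 (7.06%) higher, against 40.6% and 41.1% of all tested genes, and 9 were not called. All 12 h libraries lay below all untreated libraries in 70 genes, against 40.9% of tested genes, and above them in 5, against 41.9%. The median difference was 0.28 (0.4267 with a pseudocount of 0.1 in place of 1) for 12 h minus 1 h, beside 0.01 over all tested genes, and -0.63 for 12 h minus untreated, beside 0.03. The tested genes had been listed by the authors for a difference among these same libraries, so these shares do not describe the transcriptome.

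The 2 calls sort the genes into 5 courses. Shares of all tested genes in these courses are not given here, so the counts describe the 85 only. In 39 genes (45.9%) the level rose again after 1 h but stayed below that of untreated cells, with a median of 43.7% of the log2 fall regained and a range from 15.0% for Bhlhe40 to 77.2% for Fam212a. In 19 genes (22.4%) the level at 12 h was lower again than at 1 h, with a median 12 h minus untreated difference of -1.52 and an extreme of -2.77 for Selenbp1. In 12 genes (14.1%) the level at 12 h was below that of untreated cells and could not be told from that at 1 h. In 9 genes (10.6%) the level was called higher than at 1 h and not called different from untreated cells. In 6 genes (7.1%), Sema4c, Stc2, Rnf113a1, Ccr1, Dusp6 and Sdc3, the 12 h level was called higher than the untreated level. For Sdc3 the 12 h and untreated libraries overlapped, and its call was lost in several settings, as given below. Over all 85 genes the median share of the fall regained was 30.6%.

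**Figure D2:**
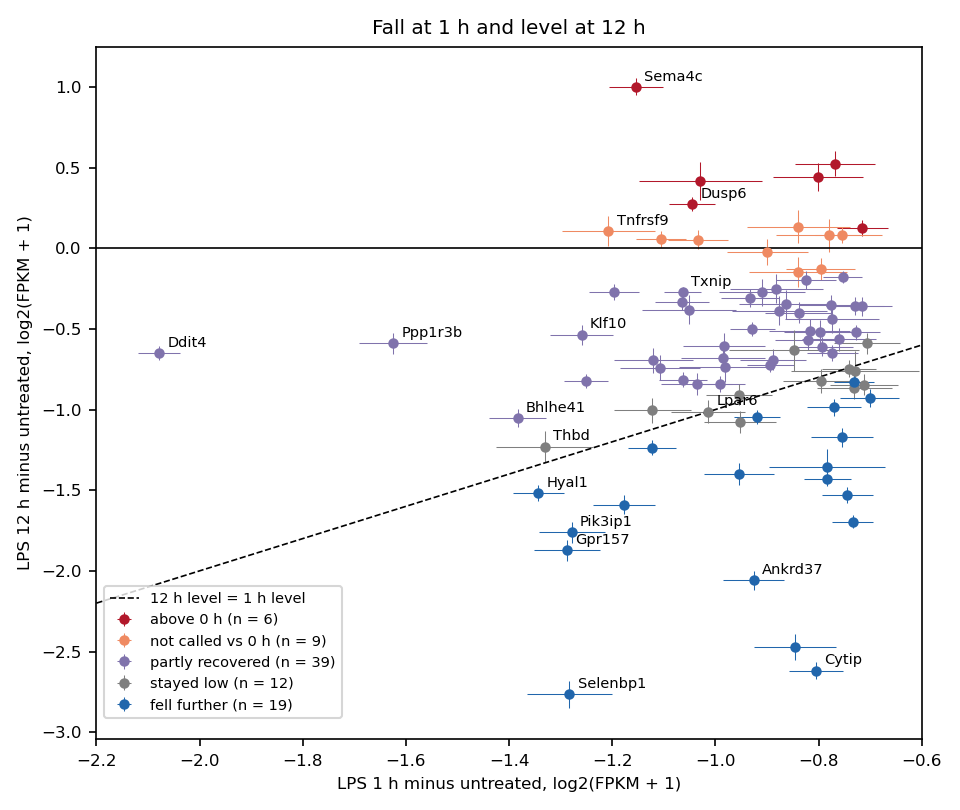
Each point is 1 of the 85 genes, with the LPS 1 h minus untreated difference on the x axis and the LPS 12 h minus untreated difference on the y axis, both in log2(FPKM + 1) and both sharing the untreated libraries, bars 1 SE. Genes on the dashed line had the same level at 12 h as at 1 h, and the 19 blue genes lie at or below it, down to Selenbp1 at -2.77, while the 6 red genes lie above the solid line, up to Sema4c at 1.00.

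Of 5 genes that restrain growth signaling or bear on fuel use, Ddit4 and Ppp1r3b had the largest falls of the 85 in log2(FPKM + 1). As a ratio of mean FPKM, 1 h over untreated, Thbd at 0.179 fell more than Ddit4 at 0.214. Gadd45g at 0.218 fell more than Ppp1r3b at 0.246. Ddit4, also called REDD1, inhibits the growth kinase complex mTORC1. Its libraries had 33.2, 33.8 and 31.9 FPKM in untreated cells, 7.04, 6.74 and 7.33 at 1 h and 20.9, 19.8 and 21.1 at 12 h. The groups did not overlap, and the 12 h libraries lay between the others. From 1 h the level regained 68.7% of its log2 fall, with a 12 h minus 1 h difference of 1.43 ± 0.041 (limma adjusted p = 5.6e-13) and a 12 h minus untreated difference of -0.65 ± 0.041 (limma adjusted p = 2.3e-09). Ppp1r3b brings protein phosphatase 1 to glycogen and so favors glycogen synthesis. The gene had 8.63, 8.49 and 8.26 FPKM in untreated cells, 2.14, 1.74 and 2.35 at 1 h and 5.59, 5.23 and 5.06 at 12 h. It took the same course, regaining 63.7%, with 12 h minus 1 h at 1.04 ± 0.067 (limma adjusted p = 3.1e-09) and 12 h minus untreated at -0.59 ± 0.067 (limma adjusted p = 1.2e-06). Txnip, which binds thioredoxin and lowers glucose uptake, had the highest mean of the 85 over the 9 libraries, though Gsn was higher in untreated cells and at 1 h. Txnip had 91.9, 91.9 and 88.8 FPKM in untreated cells, 42.9, 44.7 and 41.3 at 1 h and 72.8, 78 and 74.2 at 12 h. Its 12 h libraries were nearer the untreated than the 1 h libraries, and the 12 h minus 1 h difference was 0.79 ± 0.036 (limma adjusted p = 6e-11), against -0.27 ± 0.036 for 12 h minus untreated. Nuak2, a kinase related to the energy sensor AMPK, averaged 5.17 ± 0.414 FPKM in untreated cells, 2.5 ± 0.24 at 1 h and 3.16 ± 0.169 at 12 h (SD, n = 3), a 12 h minus untreated difference of -0.57 ± 0.065 (limma adjusted p = 1.3e-06). Pik3ip1, a membrane protein that restrains PI3 kinase, did not turn back. It had 5.11, 4.75 and 4.62 FPKM in untreated cells, 1.32, 1.48 and 1.41 at 1 h and 0.786, 0.786 and 0.587 at 12 h, and every 12 h library lay below every 1 h library, with a 12 h minus 1 h difference of -0.48 ± 0.064 (limma adjusted p = 6.7e-06). All 5 of these genes were called lower at 12 h than in untreated cells, against 40.6% of tested genes and 82.4% of the 85.

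**Figure D3:**
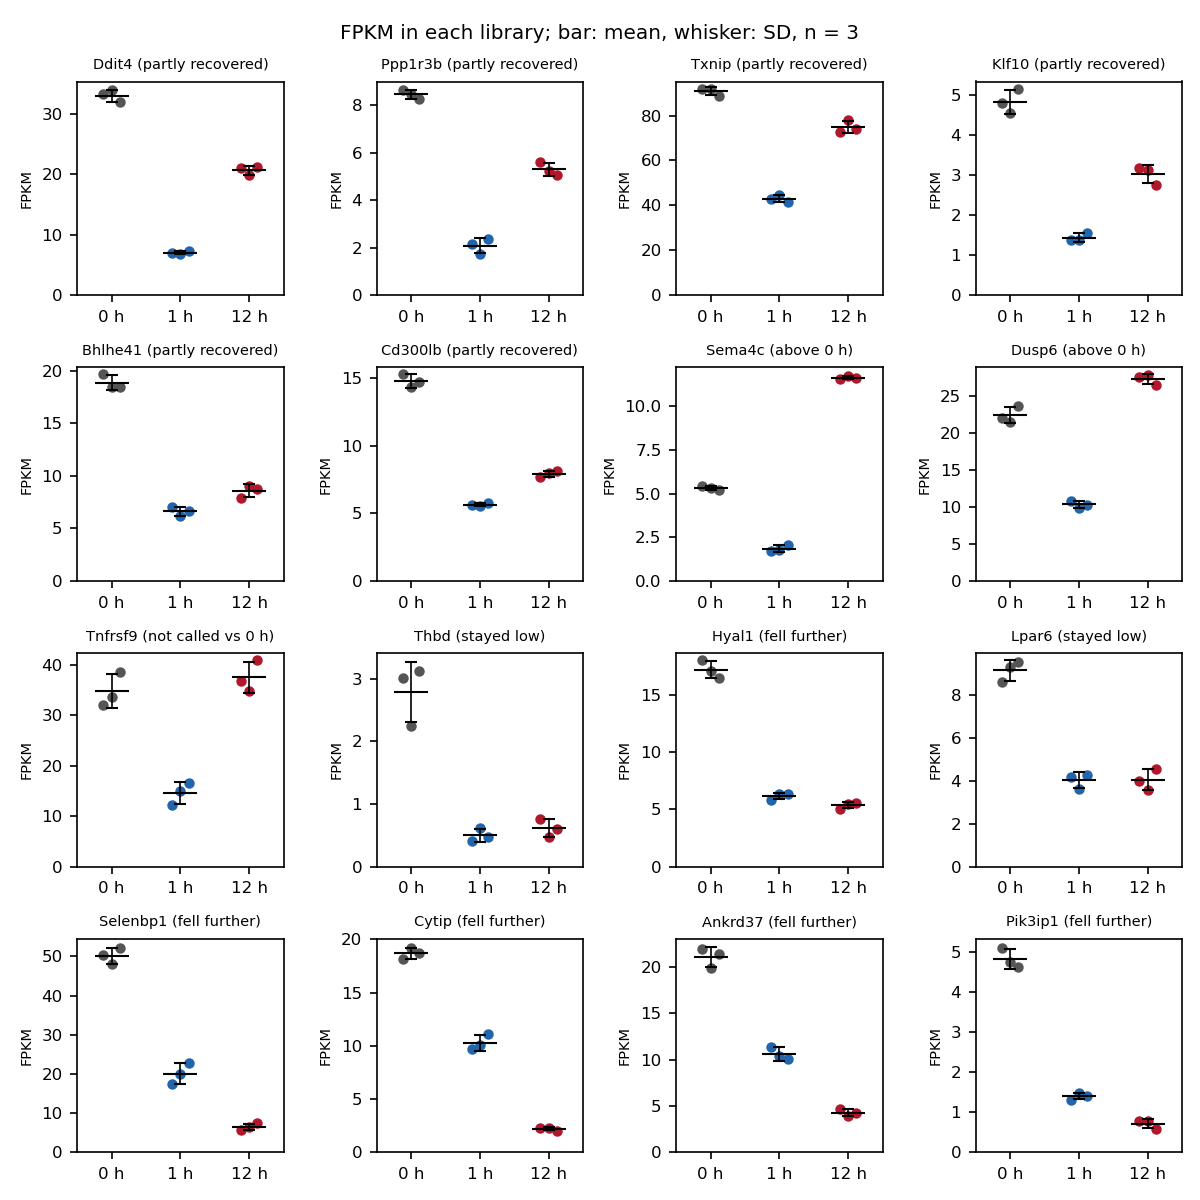
FPKM (y axis, from 0) in each of the 3 libraries at 0 h, 1 h and 12 h for 16 of the genes, with the mean as a bar and the SD as whiskers. Sema4c and Dusp6 end above, Tnfrsf9 overlaps, and the remaining 13 end below the untreated libraries. In FPKM relative to their start, Selenbp1, Cytip and Pik3ip1 end lowest.

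Another 12 tested genes were Foxo1, Foxo3, Foxo4 and genes that FOXO factors switch on or that restrain mTORC1. Of the 12, 7 were called lower and 1 higher at 1 h, against 34.9% and 24.1% of tested genes. At 12 h, 10 were lower and 2 higher than in untreated cells, against 40.6% and 41.1% of tested genes. The FOXO factor genes Foxo1, Foxo3 and Foxo4 were among those lower at both times. Sesn1, a sestrin that restrains mTORC1, differed from untreated cells by -0.50 ± 0.059 at 1 h and -1.60 ± 0.059 at 12 h. Ccng2, a cyclin of resting cells, differed by -0.53 ± 0.052 and -1.30 ± 0.052, and Klf2, a quiescence factor, by -0.60 ± 0.084 and -0.97 ± 0.084. The other 4 were not called at 1 h, and the 1 gene called higher was Bcl6, a transcriptional repressor, at 1.06 ± 0.061. The 2 genes higher at 12 h, named after their values were seen, were Sesn2, another sestrin, at -0.05 ± 0.057 at 1 h and 1.18 ± 0.057 at 12 h, and Arrdc4, a relative of Txnip, at -0.33 ± 0.060 and 1.22 ± 0.060. Of 10 tested genes of glycogen metabolism besides Ppp1r3b, 8 were called lower and 0 higher at 1 h by limma, against 34.9% and 24.1% of tested genes, and the 2 without a call at the adjusted threshold were Pgm1 and Phka2. Gys1, the glycogen synthase, differed by -0.66 ± 0.035 at 1 h and -0.09 ± 0.035 at 12 h, Pgm2 by -0.46 ± 0.037 and -0.11 ± 0.037, and the branching enzyme Gbe1 by -0.36 ± 0.046 and -0.15 ± 0.046. At 12 h, 8 of the 10 were lower than in untreated cells and 1 was higher, against 40.6% and 41.1% of tested genes.

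The 9 transcription regulators described here were all still lower at 12 h than in untreated cells, against 40.6% of tested genes. Bhlhe41 and Bhlhe40, also called DEC2 and DEC1, are repressors that bind E-boxes and damp the circadian clock. Bhlhe41 had 19.6, 18.4 and 18.5 FPKM in untreated cells, 7, 6.17 and 6.68 at 1 h and 7.88, 9.06 and 8.77 at 12 h, and Bhlhe40 had 26.3, 24.6 and 23.2 FPKM in untreated cells, 12.6, 11.8 and 11.4 at 1 h and 13.4, 12.9 and 13.7 at 12 h. In both, the 12 h libraries were only slightly above the 1 h libraries, with 12 h minus 1 h differences of 0.33 ± 0.055 (limma adjusted p = 6.1e-05) and 0.15 ± 0.049 (limma adjusted p = 0.011) and 12 h minus untreated differences of -1.05 ± 0.055 and -0.84 ± 0.049. The Bhlhe40 call for 12 h against 1 h was lost without LPS 1 h library 3 (0.12, limma adjusted p = 0.052). Klf10 encodes a zinc finger factor first known as a TGF-beta-induced early gene. Its levels were 4.82, 4.55 and 5.16 FPKM in untreated cells, 1.38, 1.38 and 1.57 at 1 h and 3.19, 3.14 and 2.77 at 12 h. The 12 h libraries fell between the others, with a 12 h minus 1 h difference of 0.72 ± 0.062 (limma adjusted p = 7.1e-08).

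Hhex encodes a homeobox repressor of blood cells. Single libraries had 26.2, 25.2 and 26.3 FPKM in untreated cells, 13.2, 12.5 and 13.7 at 1 h and 17.5, 19 and 17.6 at 12 h, and its 12 h minus 1 h difference was 0.43 ± 0.044 (limma adjusted p = 4.8e-07). Irf2bp2, a corepressor partner of IRF2, stayed low. Its level was 26.7 ± 0.451 FPKM in untreated cells, 15.6 ± 1.13 at 1 h and 15.5 ± 1.04 at 12 h (SD, n = 3), with 12 h minus 1 h at -0.01 ± 0.053 (limma adjusted p = 0.93). The retinoic acid receptor gene Rara averaged 3.69 ± 0.129 FPKM in untreated cells, 1.62 ± 0.069 at 1 h and 2.56 ± 0.327 at 12 h, and Tsc22d3, the glucocorticoid-induced leucine zipper, averaged 2.77 ± 0.184 FPKM in untreated cells, 1.17 ± 0.196 at 1 h and 1.63 ± 0.077 at 12 h. Both regained part of the fall, 52.2% and 35.1% on the log2 scale. Zbtb1 and Zkscan14, zinc finger proteins, averaged 5.99 ± 0.382 and 2.63 ± 0.522 FPKM at 12 h, against 7.97 ± 0.299 and 3.87 ± 0.154 in untreated cells, and both were called higher at 12 h than at 1 h.

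Of 12 further tested clock genes, 6 were called higher and 4 lower at 1 h, against 24.1% and 34.9% of tested genes, and 4 higher and 3 lower at 12 h than in untreated cells. The 1 h differences of these clock genes included Per1 at 0.40 ± 0.049, Nfil3 at 0.33 ± 0.046, Dbp at -0.46 ± 0.067, Cry2 at -0.40 ± 0.049 and Ciart at -0.39 ± 0.087. Of 17 other macrophage and microglial transcription factors, 8 were lower and 4 higher at 1 h, against 34.9% and 24.1% of tested genes, and 12 lower and 2 higher at 12 h than in untreated cells, against 40.6% and 41.1% of tested genes. Cebpa differed from untreated cells by -0.50 ± 0.066 at 1 h and -0.81 ± 0.066 at 12 h, while Cebpb rose, with 0.65 ± 0.039 and 0.86 ± 0.039. None of the 9 tested MYC and MAX network genes and none of the 8 tested ID, HES and SMAD feedback genes is among the 85. In the first list 4 were lower and 3 higher at 1 h, with Myc at 1.11 ± 0.099. In the second 3 were lower and 3 higher, with Id3 at 1.99 ± 0.062 and Id2 at -0.45 ± 0.053. Of all tested genes 34.9% were lower and 24.1% higher at 1 h.

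Cbx8 and Cbx2 encode chromobox proteins of Polycomb repressive complex 1, which reads and maintains silencing marks on histones. Cbx8 had 2.11, 2.07 and 2.13 FPKM in untreated cells, 0.767, 0.712 and 0.555 at 1 h and 0.913, 1 and 0.851 at 12 h, and Cbx2 had 3.57, 3.45 and 3.11 FPKM in untreated cells, 1.55, 1.6 and 1.41 at 1 h and 1.73, 1.23 and 1.47 at 12 h. Cbx8 regained 22.1% of its log2 fall, with a 12 h minus 1 h difference of 0.20 ± 0.064 (limma adjusted p = 0.011), and Cbx2 had a 12 h minus 1 h difference of -0.03 ± 0.074 (limma adjusted p = 0.71) with overlapping libraries. The Cbx8 call for 12 h against 1 h was lost without LPS 1 h library 3 (0.14, limma adjusted p = 0.055). Pwwp2b, a PWWP domain chromatin protein, averaged 6.09 ± 0.398 FPKM in untreated cells, 2.26 ± 0.204 at 1 h and 3.39 ± 0.473 at 12 h (SD, n = 3). These 3 chromatin genes were called lower at 12 h than in untreated cells, against 40.6% of tested genes.

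Among 8 G protein-coupled receptors and regulators, 7 were lower and 1 was higher at 12 h than in untreated cells, against 40.6% and 41.1% of tested genes. Gpr157 encodes an orphan receptor. It measured 4.83, 4.26 and 4.84 FPKM in untreated cells, 1.26, 1.46 and 1.22 at 1 h and 0.5, 0.539 and 0.578 at 12 h. Its libraries stepped down without overlap, with a 12 h minus 1 h difference of -0.59 ± 0.064 (limma adjusted p = 9.5e-07) and a 12 h minus untreated difference of -1.87 ± 0.064 (limma adjusted p = 2.5e-12). Lpar6 encodes a lysophosphatidic acid receptor. It had 8.6, 9.31 and 9.56 FPKM in untreated cells, 4.2, 3.62 and 4.28 at 1 h and 3.98, 3.59 and 4.56 at 12 h. Its 12 h and 1 h libraries overlapped and differed by 0.00 ± 0.072 (limma adjusted p = 0.99). Ccr1 encodes a receptor for inflammatory chemokines. Its libraries had 3.74, 4.07 and 4.36 FPKM in untreated cells, 1.16, 1.66 and 1.64 at 1 h and 5.43, 4.66 and 7.46 at 12 h. It was the receptor of this kind that ended above untreated cells, with a 12 h minus untreated difference of 0.42 ± 0.119 (limma adjusted p = 0.0048), and its 12 h libraries were spread widely.

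S1pr2 encodes a sphingosine-1-phosphate receptor. The gene had 8.76, 7.98 and 7.78 FPKM in untreated cells, 3.33, 3.57 and 3.25 at 1 h and 6.4, 6.38 and 6.07 at 12 h, and it regained 68.9% of its log2 fall with a 12 h minus 1 h difference of 0.73 ± 0.052 (limma adjusted p = 9.6e-09). Cnr2 encodes the cannabinoid receptor of immune cells. Its levels were 3.59, 2.72 and 2.76 FPKM in untreated cells, 0.909, 0.898 and 0.774 at 1 h and 1.5, 1.34 and 1.35 at 12 h, and it regained 33%. Both were above their 1 h libraries and below their untreated libraries at 12 h. Cx3cr1 encodes the fractalkine receptor that marks resting microglia. Single libraries had 6.7, 6.2 and 5.9 FPKM in untreated cells, 3.05, 3.46 and 3.36 at 1 h and 3.37, 4.15 and 4.27 at 12 h. Its 12 h and 1 h libraries overlapped, with a 12 h minus 1 h difference of 0.20 ± 0.071 (limma adjusted p = 0.019) against -0.56 ± 0.071 for 12 h minus untreated. The Cx3cr1 call for 12 h against 1 h was lost without LPS 1 h library 1, LPS 12 h library 2 and LPS 12 h library 3 (0.15 to 0.16, limma adjusted p = 0.073 to 0.09). It did so too with array weights and adjustment over 21878 genes (0.15 to 0.20, limma adjusted p = 0.06 to 0.075). Fzd7, a Wnt receptor of the frizzled family, averaged 41.1 ± 0.615 FPKM in untreated cells, 24.4 ± 1.27 at 1 h and 22.7 ± 0.443 at 12 h (SD, n = 3), and Rgs11, which speeds G protein inactivation, averaged 3.79 ± 0.373 FPKM in untreated cells, 1.92 ± 0.058 at 1 h and 1.66 ± 0.141 at 12 h. The Fzd7 call for 12 h against 1 h was lost without LPS 1 h library 3 and LPS 12 h library 2 (-0.08 to -0.06, limma adjusted p = 0.098 to 0.17). The call changed likewise with adjustment over 21878 genes (-0.10, limma adjusted p = 0.12). The Rgs11 call for 12 h against 1 h appeared without untreated library 3 and LPS 12 h library 2 (-0.18 to -0.14, limma adjusted p = 0.034 to 0.047). This was also so with an eBayes fit without trend and array weights (-0.15 to -0.14, limma adjusted p = 0.044 to 0.045). Of 17 other tested G protein-coupled receptor and RGS genes, 6 were lower and 5 higher at 1 h, against 34.9% and 24.1% of tested genes. At 12 h, 11 were lower and 4 higher than in untreated cells, against 40.6% and 41.1%. C5ar1, the complement C5a receptor, differed by 1.76 ± 0.047 at 1 h and Rgs1 by 1.46 ± 0.039, while Lpar5 differed by -0.59 ± 0.058.

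The 10 other surface receptors and ligands had mixed outcomes, with 5 lower, 2 higher and 3 not called at 12 h against untreated cells, where 40.6% and 41.1% of tested genes were lower and higher. Sema4c encodes a transmembrane semaphorin. It measured 5.44, 5.29 and 5.21 FPKM in untreated cells, 1.7, 1.76 and 2.06 at 1 h and 11.5, 11.7 and 11.6 at 12 h. Each 12 h library was above each untreated library, with a 12 h minus 1 h difference of 2.15 ± 0.052 (limma adjusted p = 9.5e-14) and a 12 h minus untreated difference of 1.00 ± 0.052 (limma adjusted p = 2.8e-10). Its relative Sema4b did not follow. Sema4b had 4.75, 4.76 and 4.51 FPKM in untreated cells, 1.73, 2.15 and 1.73 at 1 h and 2.54, 2.13 and 3 at 12 h, and its 12 h libraries stayed below the untreated ones, with a difference of -0.68 ± 0.082 (limma adjusted p = 2.3e-06). Sdc3 encodes a heparan sulfate proteoglycan. It had 23, 21.8 and 21.6 FPKM in untreated cells, 12.4, 12.8 and 14.1 at 1 h and 24.6, 22.9 and 25.2 at 12 h. Its 12 h and untreated libraries overlapped and differed by 0.12 ± 0.049 (limma adjusted p = 0.031). The Sdc3 call for 12 h against untreated cells was lost without untreated library 2, untreated library 3, LPS 12 h library 1 and LPS 12 h library 3 (0.10 to 0.11, limma adjusted p = 0.082 to 0.12). The result was the same with quantile normalization and adjustment over 21878 genes (0.06 to 0.12, limma adjusted p = 0.12 to 0.24).

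Of the 10 other surface receptors and ligands, the 3 not called different from untreated cells at 12 h were Tnfrsf9, Tnfsf14 and Tnfsf12. All 3 belong to the tumor necrosis factor ligand and receptor families, and they are set together after their values were seen. Of all tested genes 40.6% were called lower and 41.1% higher. Tnfrsf9 encodes the costimulatory receptor 4-1BB. Its libraries had 32.1, 33.7 and 38.7 FPKM in untreated cells, 12.2, 15 and 16.6 at 1 h and 36.8, 34.9 and 40.9 at 12 h. Its 12 h libraries were above all 1 h libraries by 1.31 ± 0.090 (limma adjusted p = 6.7e-09) and overlapped the untreated ones, from which they differed by 0.11 ± 0.090 (limma adjusted p = 0.29). Tnfsf14, the ligand LIGHT, averaged 1.65 ± 0.323 FPKM in untreated cells, 0.477 ± 0.151 at 1 h and 1.9 ± 0.306 at 12 h (SD, n = 3), and Tnfsf12, the ligand TWEAK, averaged 3.4 ± 0.627 FPKM in untreated cells, 1.56 ± 0.352 at 1 h and 3.63 ± 0.22 at 12 h. The 12 h minus untreated differences were 0.13 ± 0.0998 (limma adjusted p = 0.23) for Tnfsf14 and 0.08 ± 0.103 (limma adjusted p = 0.48) for Tnfsf12, and a missed threshold does not show that the levels were equal. The Tnfsf14 call for 12 h against untreated cells appeared without untreated library 3 (0.23, limma adjusted p = 0.046). The same held with quantile normalization (0.31, limma adjusted p = 0.016).

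Thbd encodes thrombomodulin, which turns thrombin toward anticoagulant protein C. The gene had 3.01, 2.24 and 3.12 FPKM in untreated cells, 0.416, 0.612 and 0.473 at 1 h and 0.759, 0.475 and 0.6 at 12 h. The 12 h and 1 h libraries overlapped, far below the untreated ones, with 12 h minus 1 h at 0.10 ± 0.094 (limma adjusted p = 0.32) and 12 h minus untreated at -1.23 ± 0.094 (limma adjusted p = 1.8e-08). Cd300lb encodes an activating member of the CD300 family of myeloid receptors. Its levels were 15.3, 14.4 and 14.7 FPKM in untreated cells, 5.59, 5.55 and 5.78 at 1 h and 7.67, 7.99 and 8.11 at 12 h, and its 12 h minus 1 h difference was 0.43 ± 0.042 (limma adjusted p = 3.6e-07). Vsir encodes the immune checkpoint protein VISTA. Single libraries had 21.3, 20.1 and 19.6 FPKM in untreated cells, 10.2, 10.4 and 10.8 at 1 h and 11.4, 11.8 and 12.6 at 12 h, and it differed at 12 h from untreated cells by -0.72 ± 0.045 (limma adjusted p = 2e-09). Il10ra, the ligand-binding chain of the interleukin-10 receptor, averaged 7.47 ± 0.968 FPKM in untreated cells, 4.09 ± 0.174 at 1 h and 3.64 ± 0.28 at 12 h (SD, n = 3), with 12 h minus untreated at -0.86 ± 0.072 (limma adjusted p = 4.7e-08). The Il10ra call for 12 h against 1 h appeared without untreated library 1 and LPS 12 h library 2 (-0.18 to -0.13, limma adjusted p = 0.034 to 0.04). It did so too with a fit of the 6 libraries compared (-0.13, limma adjusted p = 0.047). Of 17 other CD300 and paired immune receptors, 9 were lower and 6 higher at 1 h, against 34.9% and 24.1% of tested genes. At 12 h, 5 were lower and 11 higher than in untreated cells, against 40.6% and 41.1%. Lilr4b differed from untreated cells by 1.40 ± 0.106 at 1 h and 1.91 ± 0.106 at 12 h, and Cd300lf, an inhibitory relative of Cd300lb, by -0.27 ± 0.057 and 1.06 ± 0.057.

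All 4 genes of cell cycle arrest and cell death were lower at 12 h than in untreated cells, against 40.6% of tested genes. Cdkn1b encodes p27, an inhibitor of cyclin-dependent kinases, and had 9.64, 11.9 and 11.4 FPKM in untreated cells, 4.6, 4.76 and 5.78 at 1 h and 6.82, 7.35 and 6.38 at 12 h. It regained 38.6% of its log2 fall, with a 12 h minus 1 h difference of 0.38 ± 0.080 (limma adjusted p = 0.00051). Gadd45g encodes a stress sensor upstream of p38 and JNK kinases. It measured 2.34, 1.51 and 2.14 FPKM in untreated cells, 0.462, 0.445 and 0.401 at 1 h and 1.13, 1.38 and 1.34 at 12 h. Its 12 h libraries lay between the others, with 12 h minus untreated at -0.38 ± 0.091 (limma adjusted p = 0.0014). The Gadd45g call for 12 h against untreated cells was lost with quantile normalization (-0.17, limma adjusted p = 0.13). Bmf, a BH3-only protein that promotes cell death, averaged 2.55 ± 0.067 FPKM in untreated cells, 0.733 ± 0.049 at 1 h and 0.987 ± 0.174 at 12 h (SD, n = 3). Plekhf1, a lysosome-associated protein, averaged 3.43 ± 0.357 FPKM in untreated cells, 1.48 ± 0.439 at 1 h and 1.88 ± 0.507 at 12 h. The Bmf call for 12 h against 1 h was lost without LPS 12 h library 2 (0.14, limma adjusted p = 0.088). This was also so with adjustment over 21878 genes (0.19, limma adjusted p = 0.064). The Plekhf1 call for 12 h against 1 h appeared without LPS 1 h library 2 (0.33, limma adjusted p = 0.027). The result was the same with the library number as a block (0.22, limma adjusted p = 0.018). Of 15 other tested genes of the p53 pathway and of cell cycle arrest, 8 were lower and 6 higher at 1 h. All tested genes had 34.9% and 24.1%. At 12 h, 3 were lower and 9 higher than in untreated cells, against 40.6% and 41.1% of tested genes. The kinase gene Plk2, named in the title of the series, differed from untreated cells by 3.11 ± 0.050 at 1 h and 1.55 ± 0.050 at 12 h, and Gadd45a, a paralog of Gadd45g, by 1.62 ± 0.068 and 2.02 ± 0.068. Gadd45b, the remaining paralog, differed by -0.45 ± 0.044 and 0.37 ± 0.044. Btg2, an antiproliferative gene, differed by 2.41 ± 0.073 at 1 h.

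In kinase signaling, 6 of 7 genes were lower and 1 was higher at 12 h than in untreated cells, against 40.6% and 41.1% of tested genes. Dusp6 and Dusp7 encode phosphatases that switch off ERK. Dusp6 had 22.1, 21.5 and 23.7 FPKM in untreated cells, 10.9, 9.89 and 10.3 at 1 h and 27.6, 27.8 and 26.5 at 12 h, and it ended above untreated cells by 0.27 ± 0.044 (limma adjusted p = 4.4e-05). Dusp7 had 40.6, 38.9 and 38.8 FPKM in untreated cells, 21.8, 23.4 and 23.7 at 1 h and 35.4, 34.1 and 34.6 at 12 h, and its 12 h libraries remained below the untreated ones by a small margin, at -0.18 ± 0.038 (limma adjusted p = 0.0005). Map3k1 encodes a kinase above JNK. It had 12, 11.8 and 11.6 FPKM in untreated cells, 5.21, 5.22 and 4.93 at 1 h and 6.43, 6.51 and 5.88 at 12 h, with a 12 h minus untreated difference of -0.82 ± 0.047 (limma adjusted p = 7.4e-10). Fgf11, an intracellular fibroblast growth factor homolog, and Frat2, which binds the kinase GSK3, both declined further after 1 h. Fgf11 averaged 11.5 ± 0.503 FPKM in untreated cells, 5.5 ± 0.751 at 1 h and 3.76 ± 0.116 at 12 h and Frat2 12.3 ± 0.308 FPKM in untreated cells, 6.73 ± 0.3 at 1 h and 3.94 ± 0.133 at 12 h (SD, n = 3), with 12 h minus 1 h differences of -0.44 ± 0.068 and -0.64 ± 0.046, each below an adjusted p of 0.05 in limma. Tifab, a relative of the TRAF6 adaptor TIFA, averaged 6.44 ± 0.543 FPKM in untreated cells, 2.84 ± 0.174 at 1 h and 2.97 ± 0.229 at 12 h, and could not be told from 1 h at 12 h. The kinase gene Pdik1l averaged 5.25 ± 0.368 FPKM in untreated cells, 2.65 ± 0.226 at 1 h and 3.89 ± 0.21 at 12 h.

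Of 7 genes for ubiquitin ligases and their adaptors, 6 were lower and 1 was higher at 12 h than in untreated cells, against 40.6% and 41.1% of tested genes. Mylip, also called IDOL, marks the LDL receptor for degradation, and had 7.19, 6.73 and 6.87 FPKM in untreated cells, 3.33, 2.59 and 3.42 at 1 h and 2.71, 2.79 and 2.77 at 12 h. Its 12 h and 1 h libraries overlapped, with 12 h minus untreated at -1.08 ± 0.069 (limma adjusted p = 2.5e-09). The Mylip call for 12 h against 1 h appeared without LPS 1 h library 2 (-0.22, limma adjusted p = 0.002). Rnf144b encodes a RING-between-RING ligase. Its libraries had 14.6, 14.4 and 13.9 FPKM in untreated cells, 7.77, 8.14 and 8.51 at 1 h and 4.14, 4.63 and 4.12 at 12 h. Kbtbd11 encodes a kelch and BTB domain protein. The gene had 8.23, 7.47 and 7.45 FPKM in untreated cells, 2.96, 2.86 and 2.74 at 1 h and 2.01, 2.01 and 1.67 at 12 h. Both were lower at 12 h than at 1 h in every library, by -0.79 ± 0.050 (limma adjusted p = 2.5e-09) and -0.41 ± 0.060 (limma adjusted p = 1.8e-05). Rnf113a1 encodes a RING finger protein. Its levels were 5.73, 5.37 and 6.08 FPKM in untreated cells, 2.25, 3.3 and 3.11 at 1 h and 8.61, 8.21 and 7.59 at 12 h, and it ended above untreated cells by 0.44 ± 0.087 (limma adjusted p = 0.00028). The BTB adaptors Klhl21, Klhl42 and Kctd11 averaged 14.1 ± 0.645, 2.25 ± 0.16 and 1.31 ± 0.207 FPKM at 12 h, against 20.6 ± 0.222, 3.97 ± 0.089 and 2.3 ± 0.245 in untreated cells (SD, n = 3). The Klhl42 call for 12 h against 1 h was lost without LPS 1 h library 2 and LPS 12 h library 3 (0.13 to 0.15, limma adjusted p = 0.05 to 0.061).

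Among 8 genes of the cytoskeleton, adhesion and vesicle traffic, 6 were lower and 2 were not called at 12 h against untreated cells, where 40.6% of tested genes were lower. The share in the 85 was 82.4%. Cytip binds cytohesin 1 and loosens integrin adhesion. Single libraries had 18.2, 19.2 and 18.7 FPKM in untreated cells, 9.7, 10.04 and 11.1 at 1 h and 2.25, 2.32 and 2.06 at 12 h. It declined about as much in FPKM after 1 h as before it, and more on the log2 scale, with 12 h minus 1 h at -1.81 ± 0.053 (limma adjusted p = 5.9e-13), the lowest of the 85. Rin2 encodes an exchange factor for Rab5. It measured 39.5, 36.6 and 37.1 FPKM in untreated cells, 22, 22.5 and 22.3 at 1 h and 10.4, 11.2 and 11.2 at 12 h, and it also fell further, by -0.96 ± 0.040 on the same comparison. Gsn encodes the actin-severing protein gelsolin. It had 93, 93.6 and 96.3 FPKM in untreated cells, 47.1, 47.6 and 53.6 at 1 h and 45.1, 43.4 and 46.9 at 12 h. Its 12 h and 1 h libraries were close, at -0.13 ± 0.045 (limma adjusted p = 0.017), with 12 h minus untreated at -1.05 ± 0.045. The Gsn call for 12 h against 1 h was lost without LPS 1 h library 3 and LPS 12 h library 2 (-0.10 to -0.07, limma adjusted p = 0.073 to 0.1). The same held with adjustment over 21878 genes (-0.13, limma adjusted p = 0.066). Fam212a, also called Inka1, is an inhibitor of the kinase PAK4. Its libraries had 25.8, 23.6 and 25.7 FPKM in untreated cells, 10.5, 10.7 and 9.88 at 1 h and 21.8, 20.1 and 19.7 at 12 h, and it regained more of its fall than any other gene called lower at 12 h, 77.2%.

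Cass4, a focal adhesion scaffold, and Arl11, a small GTPase, were called higher at 12 h than at 1 h and not called different from untreated cells. Cass4 averaged 2.29 ± 0.204 FPKM in untreated cells, 0.764 ± 0.105 at 1 h and 2.25 ± 0.336 at 12 h and Arl11 10.6 ± 0.474 FPKM in untreated cells, 5.84 ± 0.168 at 1 h and 11.2 ± 0.73 at 12 h (SD, n = 3), with 12 h minus untreated differences of -0.02 ± 0.078 (limma adjusted p = 0.79) and 0.08 ± 0.051 (limma adjusted p = 0.15). The Arl11 call for 12 h against untreated cells appeared without LPS 12 h library 2 (0.13, limma adjusted p = 0.033). It did so too with quantile normalization (0.11, limma adjusted p = 0.046). Vamp1, a vesicle SNARE, averaged 3.25 ± 0.148 FPKM in untreated cells, 0.96 ± 0.189 at 1 h and 1.12 ± 0.129 at 12 h, and Rab3a, a GTPase of regulated secretion, averaged 1.57 ± 0.095 FPKM in untreated cells, 0.398 ± 0.138 at 1 h and 1.16 ± 0.242 at 12 h. The Vamp1 call for 12 h against 1 h appeared without LPS 1 h library 2 (0.18, limma adjusted p = 0.044). The call changed likewise with quantile normalization (0.20, limma adjusted p = 0.036). The Rab3a call for 12 h against untreated cells was lost without untreated library 2 and LPS 12 h library 2 (-0.22 to -0.16, limma adjusted p = 0.064 to 0.11). This was also so with pseudocount 0.1, quantile normalization and adjustment over 21878 genes (-0.42 to -0.03, limma adjusted p = 0.07 to 0.78).

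Enzymes and organelle proteins made up 12 genes, 9 of them lower, 1 higher and 2 not called at 12 h against untreated cells, where 40.6% and 41.1% of tested genes were lower and higher. In all 85 genes the shares were 82.4% and 7.06%. Selenbp1 encodes a selenium-binding protein that oxidizes methanethiol. The gene had 50.3, 47.9 and 52.1 FPKM in untreated cells, 17.5, 19.97 and 22.8 at 1 h and 5.78, 6.45 and 7.39 at 12 h. The libraries stepped down without overlap to the lowest 12 h minus untreated difference of the 85, -2.77 ± 0.083 (limma adjusted p = 6.1e-13). Hyal1 encodes a lysosomal hyaluronidase. Its levels were 18, 17.1 and 16.5 FPKM in untreated cells, 5.85, 6.31 and 6.34 at 1 h and 5.07, 5.47 and 5.55 at 12 h. Nat6 encodes the actin N-terminal acetyltransferase also called Naa80. Single libraries had 22.4, 22.6 and 20.9 FPKM in untreated cells, 9.09, 10.1 and 9.45 at 1 h and 8.45, 8.96 and 8.78 at 12 h. They fell in parallel, with 12 h minus 1 h at -0.17 ± 0.049 (limma adjusted p = 0.0046) and -0.12 ± 0.046 (limma adjusted p = 0.031). The Nat6 call for 12 h against 1 h was lost without LPS 1 h library 2, LPS 12 h library 1 and LPS 12 h library 3 (-0.12 to -0.08, limma adjusted p = 0.051 to 0.15). The result was the same with quantile normalization and adjustment over 21878 genes (-0.12 to -0.07, limma adjusted p = 0.12 to 0.16). The annotated genes overlap on 1 strand, together with Hyal3, so reads may be shared between Hyal1 and Nat6 and their values are uncertain as separate measurements.

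Stc2 encodes the secreted glycoprotein stanniocalcin 2. It measured 8.21, 8.69 and 9.26 FPKM in untreated cells, 4.76, 5.5 and 3.95 at 1 h and 13.2, 12.6 and 13.1 at 12 h, and it rose above the untreated level at 12 h by 0.52 ± 0.077 (limma adjusted p = 1.7e-05). Tor4a encodes an ATPase of the torsin family. It had 12.8, 11.7 and 12.6 FPKM in untreated cells, 5.36, 5.19 and 5.07 at 1 h and 13, 12.2 and 13.5 at 12 h, and it could not be told from untreated cells at 12 h, at 0.06 ± 0.048 (limma adjusted p = 0.27). Gcnt1, which branches core 2 O-glycans, averaged 8.33 ± 0.818 FPKM in untreated cells, 4.36 ± 0.336 at 1 h and 7.5 ± 0.41 at 12 h (SD, n = 3), with 12 h minus untreated at -0.13 ± 0.067 (limma adjusted p = 0.086). The Gcnt1 call for 12 h against untreated cells appeared without untreated library 1 (-0.21, limma adjusted p = 0.0079). The same held with array weights (-0.17, limma adjusted p = 0.024). Part of the fall was regained by Pla2g15, a lysosomal phospholipase, by Pex26, a peroxisomal import factor, and by Tmem86a, a lysoplasmalogenase, at 66.9%, 55.9% and 59.8% of it. Tst, the mitochondrial rhodanese, averaged 2.74 ± 0.59 FPKM in untreated cells, 1.26 ± 0.429 at 1 h and 1.19 ± 0.091 at 12 h, Mettl21a, a methyltransferase of HSP70 chaperones, averaged 3.54 ± 0.195 FPKM in untreated cells, 1.78 ± 0.113 at 1 h and 2.02 ± 0.229 at 12 h, and Abhd15, a lipase-like protein, averaged 4.66 ± 0.383 FPKM in untreated cells, 2.48 ± 0.077 at 1 h and 1.97 ± 0.048 at 12 h. The Tst libraries at 1 h were scattered, and Abhd15 was lower at 12 h than at 1 h by -0.23 ± 0.057 (limma adjusted p = 0.0018). The Mettl21a call for 12 h against 1 h appeared without LPS 12 h library 3 (0.16, limma adjusted p = 0.046).

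Of 5 other tested genes for breaking down hyaluronan and related chains, 4 were lower and 1 was higher at 1 h. All tested genes had 34.9% and 24.1%. At 12 h, 3 were lower and 2 higher than in untreated cells, against 40.6% and 41.1% of tested genes. Sgsh, a lysosomal sulfatase, differed from untreated cells by -0.45 ± 0.071 at 1 h and -1.27 ± 0.071 at 12 h, and the hyaluronan receptor gene Cd44 by 0.19 ± 0.033 and 0.57 ± 0.033. In the list of selenium, glutathione and detoxification genes, 6 of 11 others were lower and 2 higher at 1 h, against 34.9% and 24.1%. At 12 h, 5 were lower and 5 higher than in untreated cells, against 40.6% and 41.1% of tested genes. Ephx1, an epoxide hydrolase just outside the threshold, had a 12 h minus untreated difference of -2.37 ± 0.049, whereas Hmox1, heme oxygenase 1, differed by -0.63 ± 0.035 at 1 h and 0.95 ± 0.035 at 12 h.

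No role is given here for 10 genes, of which 8 were lower and 2 were not called at 12 h against untreated cells, where 40.6% of tested genes were lower. Ankrd37 is an ankyrin repeat gene known as a target of hypoxia signaling. Its libraries had 21.9, 19.8 and 21.3 FPKM in untreated cells, 11.4, 10.4 and 10.02 at 1 h and 4.68, 3.97 and 4.25 at 12 h, and Lrrc14b had 8.5, 8.06 and 7.44 FPKM in untreated cells, 4.14, 4.39 and 3.53 at 1 h and 0.487, 0.597 and 0.797 at 12 h. Each 12 h library was below each 1 h library, with 12 h minus untreated differences of -2.06 ± 0.059 (limma adjusted p = 3.8e-13) and -2.47 ± 0.079 (limma adjusted p = 1.3e-12). Apold1 is a gene best known from vascular endothelium. The gene had 3.15, 2.62 and 3.09 FPKM in untreated cells, 1.02, 1.04 and 1.92 at 1 h and 0.533, 0.528 and 0.563 at 12 h, with LPS 1 h library 3 apart from its group. The gene 5031414D18Rik averaged 5.08 ± 0.24 FPKM in untreated cells, 2.61 ± 0.188 at 1 h and 1.7 ± 0.14 at 12 h (SD, n = 3). Both were lower again at 12 h than at 1 h. AI467606 averaged 7.85 ± 0.328 FPKM in untreated cells, 3.32 ± 0.213 at 1 h and 8.19 ± 0.625 at 12 h and Prelid2 14.2 ± 1.38 FPKM in untreated cells, 7.45 ± 0.231 at 1 h and 12.8 ± 2.45 at 12 h, and neither was called different from untreated cells at 12 h. The Prelid2 call for 12 h against untreated cells appeared without LPS 12 h library 3 (-0.29, limma adjusted p = 0.0011). The 4 others, Ccdc142, Fam78a, Zswim3 and 9930012K11Rik, regained 24.8%, 16.1%, 49.9% and 70.00% of the log2 fall. The Ccdc142 call for 12 h against 1 h was lost without LPS 1 h library 2 and LPS 12 h library 2 (0.14 to 0.19, limma adjusted p = 0.081 to 0.12). It did so too with adjustment over 21878 genes (0.24, limma adjusted p = 0.076). The Fam78a call for 12 h against 1 h was lost without LPS 1 h library 1, LPS 1 h library 2, LPS 12 h library 1, LPS 12 h library 2 and LPS 12 h library 3 (0.10 to 0.13, limma adjusted p = 0.053 to 0.095). The call changed likewise with adjustment over 21878 genes (0.12, limma adjusted p = 0.11). The 9930012K11Rik call for 12 h against untreated cells was lost with pseudocount 0.1 and quantile normalization (-0.44 to -0.04, limma adjusted p = 0.079 to 0.68).

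**Figure D4:**
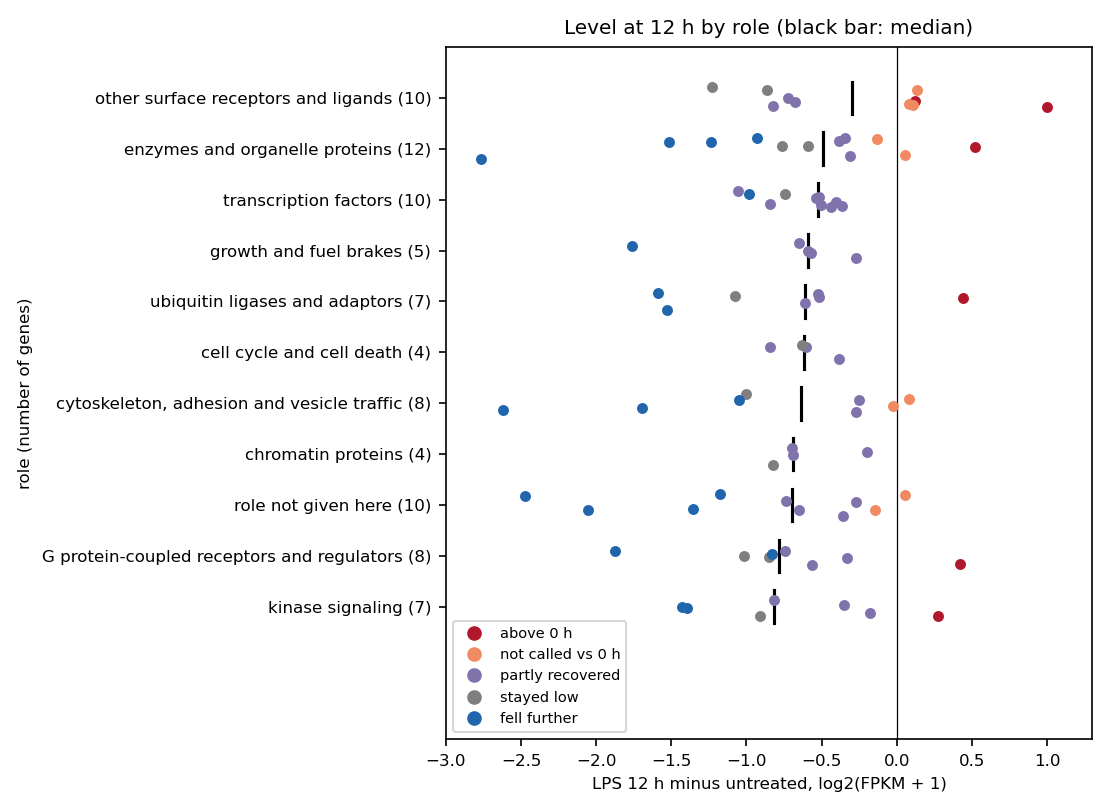
LPS 12 h minus untreated difference in log2(FPKM + 1) (x axis) for each of the 85 genes, by role (y axis), colored by course, with a black bar at each role's median. The medians of all 11 roles lie below 0, from -0.30 for other surface receptors and ligands to -0.82 for kinase signaling, and most genes lie left of 0.

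The 85 genes were short and had few exons, a feature the choice did not use. In the GENCODE M21 annotation of the mouse genome their median gene length was 9.6 kb, against 25.01 kb for the 5636 tested genes with an annotation, and their longest transcript had a median of 4 exons, against 10. At most 3 exons were found in 40 of the 85 (47.1%), against 11.5% of tested genes, and a single exon in 9 (10.6%), against 1.7%. The 191 annotated genes that rose by at least 0.7 at 1 h were also short, with a median length of 11.6 kb, 5 exons and 35.1% with at most 3 exons. Transcript length hardly differed, with a median of 3113 bases against 3282. The 3′ untranslated regions had a median length of 1564 bases, against 1251 in tested genes and 1111 in the genes that rose. The pentamer ATTTA, the core of AU-rich elements that shorten mRNA life, was present in the 3′ untranslated region of 72.9% of the 85 genes, 72.8% of tested genes and 86.9% of the genes that rose, and the heptamer TATTTAT in 30.6%, 32.1% and 52.4%. These shares are descriptions without a test, and the 3′ untranslated regions were examined after the levels had been seen.

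**Figure D5:**
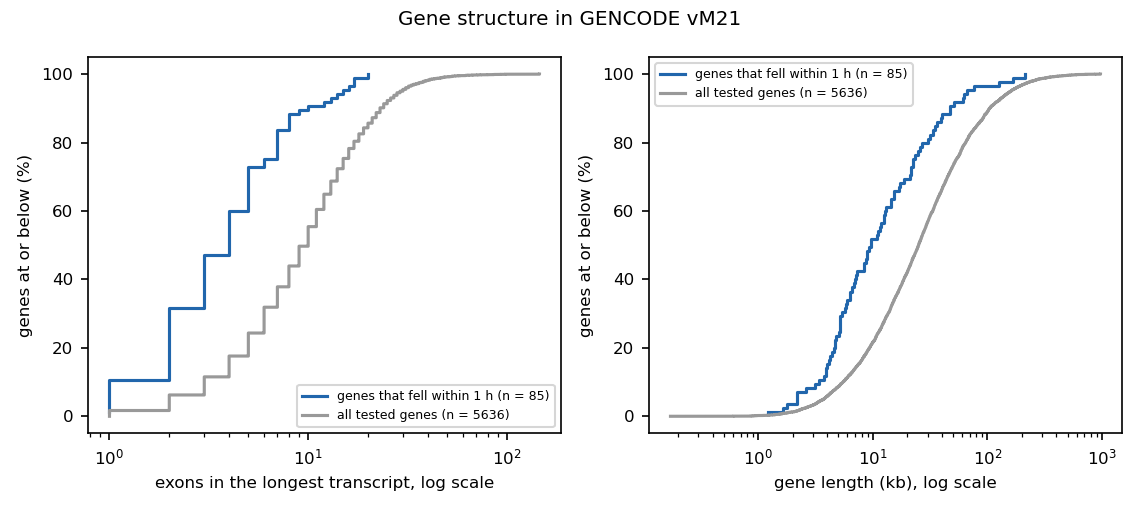
Cumulative share of genes (y axis, percent) with at most the given number of exons in the longest transcript (left) or gene length in kb (right), both on log x axes, for the 85 genes and for the 5636 annotated tested genes. The curve of the 85 genes lies to the left in both panels, with medians of 4 against 10 exons and 9.6 against 25.01 kb.

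Promoter windows, 250 bases before to 50 after the annotated start, were found in the RefSeq table (GRCm38.p6) for 66 of the 85 genes. At 77.6% this is under the 80% needed, so a comparison of promoter content is void, and the shares are given only as what the windows hold. The letters TATAAA, read on both strands, stood in 10 of the 66 windows (15.2%) and in 6.3% of the windows of tested genes. The E-box CACGTG stood in 4 windows (6.1%, against 11.1%), the forkhead form GTAAACA in 2 (3.0%, against 2.5%), the CRE TGACGTCA in 2 (3.0%, against 3.5%) and the kappa B form, GGG and CC with 5 free bases between them, in 41 (62.1%, against 70.2%). The E-box and the CRE share their core letters and could overlap, and a match is a string of letters, not a shown binding site. Windows of 6 genes are printed, 1 for each course except those above untreated cells, and 2 for the E-box and forkhead matches in genes of the clock and of glucose uptake. Capitals mark the TATA form on either strand, the E-box and the forkhead form. Lrrc14b, which fell further, has TATAAA 30 bases before the start, Mylip, which stayed low, 32 bases before it, Gadd45g, which recovered in part, 27 bases before it, and Gcnt1, which was not called different from untreated cells at 12 h, 29 bases before it but on the opposite strand, so that its window reads the reverse complement there. Gcnt1 has a further TATAAA at position -244 and Gadd45g also holds CACGTG at position -142. Bhlhe41 has CACGTG at position -153 and Txnip GTAAACA at position -121 from the start. The windows lie at chr13:74363951-74364250 on the minus strand for Lrrc14b, chr13:45389492-45389791 on the plus strand for Mylip, chr13:51846425-51846724 on the plus strand for Gadd45g, chr19:17372795-17373094 on the minus strand for Gcnt1, chr6:145865371-145865670 on the minus strand for Bhlhe41 and chr3:96557707-96558006 on the plus strand for Txnip, and each sequence reads 5′ to 3′ along the gene.
Lrrc14b: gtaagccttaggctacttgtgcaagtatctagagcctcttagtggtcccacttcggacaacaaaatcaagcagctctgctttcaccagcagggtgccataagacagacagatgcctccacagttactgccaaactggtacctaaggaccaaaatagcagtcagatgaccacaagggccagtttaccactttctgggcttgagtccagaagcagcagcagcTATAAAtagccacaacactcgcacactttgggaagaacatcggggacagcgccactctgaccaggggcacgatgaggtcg
Mylip: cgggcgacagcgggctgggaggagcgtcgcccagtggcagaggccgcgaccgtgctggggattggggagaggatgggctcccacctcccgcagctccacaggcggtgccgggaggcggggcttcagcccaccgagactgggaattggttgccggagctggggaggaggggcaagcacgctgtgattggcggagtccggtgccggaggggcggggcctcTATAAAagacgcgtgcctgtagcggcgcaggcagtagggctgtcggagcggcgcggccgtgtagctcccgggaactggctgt
Gadd45g: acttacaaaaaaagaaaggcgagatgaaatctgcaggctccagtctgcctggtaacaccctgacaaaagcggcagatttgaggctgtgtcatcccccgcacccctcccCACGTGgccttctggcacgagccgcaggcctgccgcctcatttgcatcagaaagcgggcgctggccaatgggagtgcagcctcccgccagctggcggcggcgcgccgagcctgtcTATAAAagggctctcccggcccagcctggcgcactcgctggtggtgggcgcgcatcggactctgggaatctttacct
Gcnt1: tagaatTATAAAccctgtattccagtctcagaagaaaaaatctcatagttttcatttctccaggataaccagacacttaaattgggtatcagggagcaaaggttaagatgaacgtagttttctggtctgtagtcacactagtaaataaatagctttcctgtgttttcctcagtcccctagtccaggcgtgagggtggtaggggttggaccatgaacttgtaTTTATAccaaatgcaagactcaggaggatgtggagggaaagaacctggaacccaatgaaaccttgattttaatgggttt
Bhlhe41: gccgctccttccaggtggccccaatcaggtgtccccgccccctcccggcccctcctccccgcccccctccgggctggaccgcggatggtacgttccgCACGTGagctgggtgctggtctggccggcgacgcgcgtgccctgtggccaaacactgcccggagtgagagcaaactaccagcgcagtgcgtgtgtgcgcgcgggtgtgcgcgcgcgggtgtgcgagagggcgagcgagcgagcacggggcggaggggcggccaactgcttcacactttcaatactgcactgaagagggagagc
Txnip: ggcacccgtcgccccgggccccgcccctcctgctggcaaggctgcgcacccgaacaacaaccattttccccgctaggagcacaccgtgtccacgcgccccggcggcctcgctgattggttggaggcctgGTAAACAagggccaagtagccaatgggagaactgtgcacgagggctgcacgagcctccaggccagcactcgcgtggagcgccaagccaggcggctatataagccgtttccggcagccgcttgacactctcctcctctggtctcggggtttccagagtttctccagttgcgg

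Some of the 85 genes are neighbors or overlap other genes. How often this holds for all tested genes was not counted. Cbx2 and Cbx8 are adjacent on chromosome 11, Cdkn1b and Apold1 are adjacent on chromosome 6, and Hyal1 and Nat6 overlap on chromosome 9. In the pair on chromosome 6, Cdkn1b regained 38.6% of its log2 fall while Apold1 was lower again at 12 h than at 1 h by -0.57 ± 0.113 (limma adjusted p = 0.00029). An annotated gene of any kind overlaps 28 of the 85, and a protein-coding gene overlaps 5 on the same strand (Hyal1, Nat6, Cx3cr1, Ccdc142 and Tnfsf12) and 12 on the opposite strand, among them Ankrd37, Lpar6, Vamp1 and Tnfrsf9. The kit keeps strand, but whether strand was used in counting is not stated, so values of these genes are uncertain where reads could be shared.

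No pair of libraries was identical. The summed FPKM of listed genes ranged from 195872 to 198075 (untreated), 203515 to 205413 (1 h) and 223720 to 228207 (12 h), and so differed between groups. The median of all tested genes moved by -0.03 at 1 h and 0.03 at 12 h against untreated cells. Of 15 microglial and macrophage markers 12 are listed, and their summed FPKM was 1375 to 1474 (untreated), 1438 to 1473 (1 h) and 1425 to 1507 (12 h). Single markers moved in both directions under this sum. Tyrobp averaged 412 FPKM at 12 h and 560 FPKM in untreated cells, Trem2 averaged 47.5 and 90.5 FPKM in the same groups, and P2ry12 averaged 0.219 and 1.24 FPKM, whereas Cd14 averaged 247 and 62.3 FPKM and Itgam 70.3 and 27.9 FPKM. No marker of neurons, astrocytes or endothelium is listed, and of 5 oligodendrocyte markers only Olig2 is, at 0 to 0.08 FPKM. Genes were listed for a difference among these libraries, so a marker that is not listed may still be expressed. The microglial and macrophage markers Aif1, Ptprc and Tmem119 are not listed either.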

How the data were processed

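RNA from 9 BV2 libraries was sequenced after TRIzol extraction and a stranded TruSeq mRNA kit, per the labels. The authors deposited 1 table of FPKM, gene by library, with pathway and transcription factor annotations. Per the file headers it also holds a p-value and q-value for each gene, a rank score and a flag, made by a test not given in the sources used here. The flag is 1 throughout and the highest q-value is 0.0999, so genes were listed for a difference among these libraries. Trimmomatic, HISAT2, Cufflinks, HTSeq and DESeq are named per the submitters' processing notes, which give no versions or roles. They name GRCh38, a human build, although the genes are mouse.

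The 85 genes, the 12 gene lists and the alternatives were chosen with earlier results of these data known, and roles were grouped after the values were seen. Results of 2 of the 85 genes and of 1 list are not reported here, though group counts include them. Levels were analysed as log2(FPKM + 1), which understates changes of low genes. Genes with a mean FPKM of 1 or more (5643) entered 1 limma 3.58.1 fit in R 4.3.3, with a mean per group and eBayes with trend. P-values were adjusted by Benjamini-Hochberg over all of them, and a call needs an adjusted p under 0.05. The deposited ranks imply 21878 genes, used for an alternative adjustment. Courses came from the 12 h minus 1 h and 12 h minus untreated calls. The share regained is the 12 h minus 1 h difference as a percent of the fall. The rule for named genes took the largest falls, the largest changes in each course, list members with up to 4 others, and the genes beside the threshold. The remaining genes of the 85 were described by role. Foxo1, Foxo3, Foxo4, Sesn2, Arrdc4, Pgm1, Phka2, Nfil3, Lpar5, Cd300lf and Gadd45b were named outside this rule, with their values known. The script was tested on simulated data.

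Depth is not known. Low values lay within 2% of a whole multiple of a step in 62.5% of 1341 cases, against 12.2% after a random shift, too few for a count test, and the steps put relative depths at 1 to 1.17 times untreated library 1, resting on 5 to 8 genes in 12 h libraries. Same-numbered libraries had residual correlations of -0.0666 to 0.1278 and were not paired. Gene structures came from GENCODE M21 and promoters from RefSeq (first of several entries in 13 genes), and 49 of 66 windows hold a GENCODE transcript start.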

Additional observations from a re-analysis of the deposited data

How the results depend on the processing

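Of the 44 genes that average 5 FPKM or more, 29 were higher and 12 lower at 12 h than at 1 h, and 33 were lower at 12 h than in untreated cells; this alternative has fewer genes by construction. The median 12 h minus 1 h difference was 0.4267 with a pseudocount of 0.1, 0.3553 with 0.5, 0.3737 at a mean FPKM of at least 5 and 0.3245 with quantile normalization. The median 12 h minus untreated difference was -0.7731 with a pseudocount of 0.1, -0.6991 with 0.5, -0.5967 at a mean FPKM of at least 5, -0.544 with quantile normalization, -0.6279 with median-of-ratios scaling and -0.6392 with array weights. Smaller pseudocounts shrink low genes less by construction, and the cause of the other shifts was not tested. Leaving out each library in turn gave 50 to 54 higher and 17 to 20 lower at 12 h than at 1 h, 69 to 71 lower and 5 to 7 higher than in untreated cells, and medians of 0.2605 to 0.3164 and -0.6524 to -0.6129. With the library number as a replicate block, 55 were higher and 19 lower at 12 h than at 1 h and 70 lower and 6 higher than in untreated cells, with medians of 0.2796 and -0.6323; Plekhf1 was the 1 gene whose course changed. Across settings that kept all 85 genes, 75 to 85 kept their course, and no difference of the 85 genes changed sign among those called. Depth limits the lowest genes most, since 1 fragment is a larger share of their level.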
